A study of Homo sapiens with 4 samples.

Results

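LINC01134, a long intergenic noncoding RNA gene on chromosome 1, and 4 protein-coding genes were described: SP1, SQSTM1, KEAP1 and NFE2L2. Members were all Ensembl transcripts in the deposited table whose gene name in GENCODE release 29 is 1 of these 5. The rule found 14 of 106179 transcripts, from 4 of 29585 named genes. SP1 had no transcript in the table: its 4 transcripts in release 29 are all protein coding, and the table holds noncoding transcripts almost only. Values given for SQSTM1, KEAP1 and NFE2L2 are therefore those counted on retained-intron and processed transcripts, as their mRNAs are not in the table. Whether reads of the mRNAs were counted on these transcripts was not tested.

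Total RNA was sequenced from cells that the labels call HepG2, a human hepatocellular carcinoma line, in a comparison that asked which lincRNAs differ with drug resistance. The groups were cells selected for resistance to the platinum drug oxaliplatin, which forms adducts on DNA, with 2 libraries, and wild-type cells of the same label, with 2 libraries. All were grown in the same serum-containing medium. The labels give no drug dose, no time, and do not state whether the resistant cells were 1 clone, whether drug was present at harvest, or whether each library had its own culture. The spread behind every p-value is that between libraries and could be technical only.

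The libraries held 43473826 and 44063444 estimated counts in resistant cells and 38113398 and 34898860 in wild type. The label was checked against noncoding transcripts of hepatocyte genes. Of 16 hepatocyte markers in the table, 10 were at 0 in every library, among them AFP, TTR, SERPINA1 and TF. ALB had 0 and 0 counts in resistant cells and 8 and 0 in wild type. The keratin genes KRT8 and KRT18 were well counted in all 4 libraries. The summed level of the hepatocyte markers was 202.4 to 236.8 CPM (counts relative to the library total, scaled by trimmed mean of M-values) in resistant cells and 336.1 to 593.9 CPM in wild type. Nearly all of it was keratin: KRT8 averaged 153.1 ± 24.3 CPM in resistant cells and 372.8 ± 179.8 CPM in wild type, and KRT18 63.7 ± 1.07 and 90.4 ± 1.98 CPM (SD, n = 2 each). The other tested markers, FOXA1 and FGG, had the higher mean CPM in resistant cells. FOXA1 had 67 and 52 counts in resistant cells and 29 and 48 in wild type, and FGG 8 and 74 counts against 3 and 9. Fibroblast and endothelial markers summed to 1.78 to 3.67 CPM in resistant cells and 6.12 to 9.22 CPM in wild type, with 2 of 8 at 0 throughout, and blood markers to 0.355 to 0.878 and 0.294 to 0.406 CPM, with 3 of 5 at 0. The part of these differences in the results below was not tested. The label is thus not borne out by the noncoding transcripts of the defining hepatocyte genes, and the cells are called by their label only.

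The genes belong to a stress response axis. KEAP1 is the substrate adaptor of a CUL3 ubiquitin ligase that holds the transcription factor NRF2, encoded by NFE2L2, at a low level, and oxidants or electrophiles that modify KEAP1 release NRF2 to switch on genes of glutathione synthesis, NADPH supply and detoxification. SQSTM1 encodes p62, a selective autophagy receptor that binds KEAP1 and takes it to autophagosomes, and NRF2 in turn activates SQSTM1. SP1 is a zinc finger transcription factor that binds GC boxes in promoters. LINC01134 has been described in liver cancer cells as an RNA that acts through SP1 on SQSTM1 and on the response to oxaliplatin.

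Sequences were taken from RefSeq promoters on GRCh38.p14, which run from 250 bases before to 50 bases after a start, and from the GENCODE transcripts. The promoter of LINC01134 and the 3 promoters listed for SQSTM1 are shown because SP1 binds GC boxes and these are the starts that RefSeq lists for the genes, with GC boxes (GGGCGG on either strand, matches may overlap) in capitals. They lie at chr1:3900154-3900453, chr5:179806143-179806442, chr5:179806759-179807058 and chr5:179820655-179820954, all on the plus strand.

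LINC01134 promoter: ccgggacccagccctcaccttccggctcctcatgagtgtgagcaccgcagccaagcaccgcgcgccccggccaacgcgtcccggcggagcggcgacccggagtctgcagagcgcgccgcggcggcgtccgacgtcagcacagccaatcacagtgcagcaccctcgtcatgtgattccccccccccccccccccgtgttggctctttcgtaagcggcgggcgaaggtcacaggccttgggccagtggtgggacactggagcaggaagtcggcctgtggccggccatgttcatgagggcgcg
SQSTM1 first upstream promoter: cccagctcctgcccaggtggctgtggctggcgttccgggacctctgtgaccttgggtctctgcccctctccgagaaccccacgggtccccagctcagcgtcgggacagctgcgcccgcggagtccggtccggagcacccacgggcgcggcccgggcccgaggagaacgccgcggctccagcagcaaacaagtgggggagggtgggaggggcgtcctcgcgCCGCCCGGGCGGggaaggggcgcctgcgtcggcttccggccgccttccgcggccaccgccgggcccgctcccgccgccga
SQSTM1 second upstream promoter: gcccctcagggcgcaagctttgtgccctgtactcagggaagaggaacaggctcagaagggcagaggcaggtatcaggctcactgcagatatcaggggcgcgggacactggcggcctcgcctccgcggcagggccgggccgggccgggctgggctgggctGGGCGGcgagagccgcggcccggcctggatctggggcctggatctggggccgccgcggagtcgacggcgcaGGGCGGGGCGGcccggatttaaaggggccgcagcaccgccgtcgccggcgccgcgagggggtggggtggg
SQSTM1 downstream promoter: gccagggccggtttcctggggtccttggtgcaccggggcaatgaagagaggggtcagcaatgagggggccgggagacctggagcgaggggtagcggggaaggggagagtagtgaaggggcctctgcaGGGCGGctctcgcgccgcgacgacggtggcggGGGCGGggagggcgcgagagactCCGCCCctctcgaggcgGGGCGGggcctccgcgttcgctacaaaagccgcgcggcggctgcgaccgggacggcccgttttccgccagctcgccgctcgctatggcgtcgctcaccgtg

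ENST00000442673 of LINC01134 and ENST00000506042 of SQSTM1 start at or within 5 bases of a start shown, while ENST00000466342, which holds most of the SQSTM1 counts, starts 2953 bases past the downstream one. The downstream SQSTM1 promoter held 4 GC boxes, the second upstream one 3, the first upstream one 2 and the LINC01134 promoter 0. At least 1 GC box was found in 45.0% of 35116 RefSeq promoters of this length, and 4 or more in 9.06%. The 2 promoters listed for SP1 itself held 4 and 10, while each of the 2 for KEAP1 and of the 2 for NFE2L2 held 3. The letters of the antioxidant response element, the NRF2 site (TGACNNNGC on either strand), were in none of the 4 sequences shown, against 13.3% of all promoters, while 1 KEAP1 promoter had 2 matches and 1 SP1 promoter had 1. These are letter matches in short windows and say nothing about binding.

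LINC01134 (ENSG00000236423, GRCh38 chromosome 1, 3900372 to 3917225, plus strand) was counted in 1 of the 4 libraries. Its transcript ENST00000442673 had 460 counts in resistant replicate 1 and 0 in resistant replicate 2, against 0 and 0 in wild type. The other 2 transcripts of the gene, ENST00000413332 and ENST00000439488, were at 0 in all 4 libraries. The gene was thus not counted in both resistant libraries, and the resistant pair spanned the whole range of the data.

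As a gene sum, LINC01134 stood at 12.2 CPM in resistant replicate 1 (95% exact Poisson interval 11.1 to 13.4), and a count of 0 allows up to 3 counts, or 0.0820 CPM in resistant replicate 2 and 0.101 and 0.110 CPM in wild-type replicates 1 and 2. Such limits cover counting error only. Resistant replicate 1 was at least 149-fold higher than resistant replicate 2, and at least 121-fold and 111-fold higher than the wild-type replicates. The gap within the resistant pair was therefore as large as the gap between that library and wild type.

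LINC01134 did not pass the filter on low counts, which asks for a minimum in 2 libraries, so it has no test with all 4 libraries under that filter. Without the filter, the edgeR quasi-likelihood test gave an adjusted p of 0.728 for the gene sum. Without resistant replicate 1 there is no count at all, and without resistant replicate 2, where the lone library is assumed to vary like wild type, the adjusted p was 0.768 (edgeR).

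ENST00000442673 has 2 exons and 3059 bases, of which 216 are shared by all 3 LINC01134 transcripts and 1778, at its 3′ end, belong to it alone. The start of the transcript and the border where its own stretch begins are shown because reads can be given to this transcript with certainty only where it differs from the others. In the first, bases 1 to 120 (chr1:3900404-3900523), capitals mark the bases in all 3 transcripts, and in the second, bases 1222 to 1341 (chr1:3915388-3915507), those of ENST00000442673 alone.

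ENST00000442673 start: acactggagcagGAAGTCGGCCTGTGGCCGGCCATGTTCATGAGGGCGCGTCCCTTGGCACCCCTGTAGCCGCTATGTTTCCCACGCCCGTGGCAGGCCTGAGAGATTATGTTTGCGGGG
ENST00000442673 border of own stretch: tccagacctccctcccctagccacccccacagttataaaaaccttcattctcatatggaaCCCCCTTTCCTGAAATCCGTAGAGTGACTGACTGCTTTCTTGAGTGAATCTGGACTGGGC

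**Figure D1:**
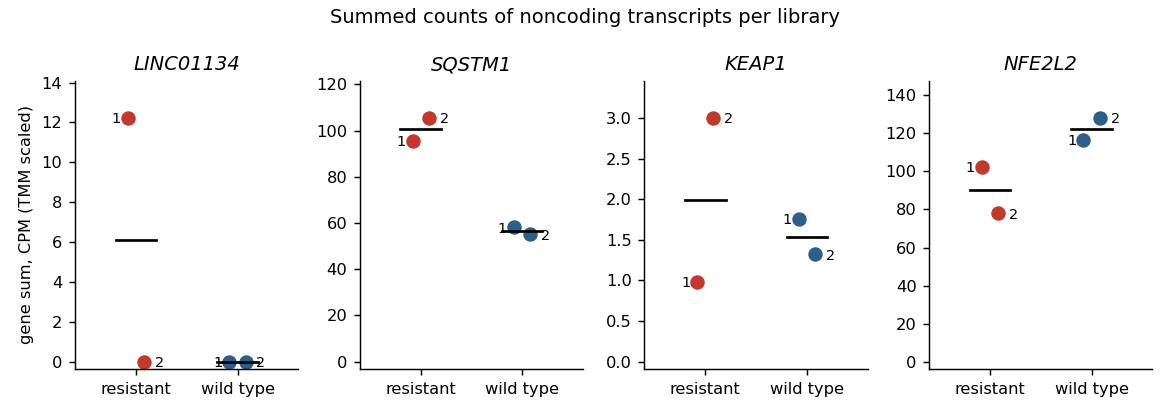
Gene sums of LINC01134, SQSTM1, KEAP1 and NFE2L2 in CPM on the y axis (a separate scale per gene) for resistant and wild-type libraries, with 1 point per library, numbered by replicate, and a line at the mean. LINC01134 is at 12.2 CPM in 1 resistant library and at 0 in the other 3, both SQSTM1 values of resistant cells lie above both of wild type, and both NFE2L2 values of resistant cells lie below.

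The same pattern was counted over the whole table. Of 29585 gene sums, 2211 were above 0 in 1 library only, and 68 had at least 460 counts in 1 library and 0 in the other 3. By library these were 18 and 19 genes in resistant replicates 1 and 2, and 22 and 9 in wild-type replicates 1 and 2. Among the 7613 lincRNA genes there were 14, of which 3 were in resistant replicate 1. Among the 106179 single transcripts there were 864, of which 247 were in resistant replicate 1. Gene sums at or above 460 counts in both resistant libraries and at 0 in both wild-type ones numbered 21, and those with the reverse pattern 4.

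**Figure D2:**
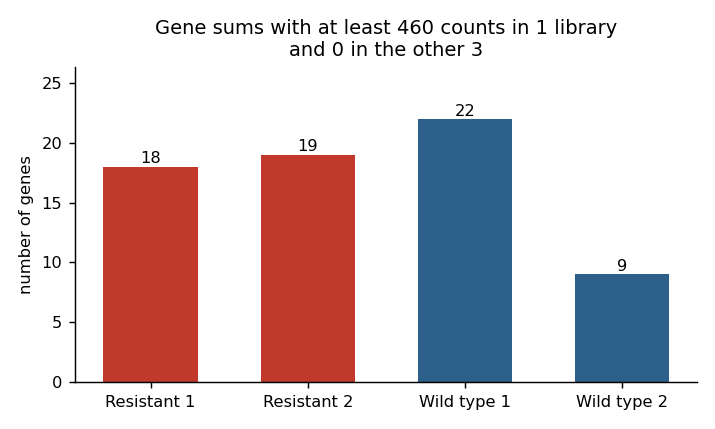
Number of genes (y axis) whose summed count was at least 460, the count of LINC01134, in 1 library and 0 in the other 3, for each library on the x axis. Every library has such genes, between 9 and 22.

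Of the genes near LINC01134, the closest was counted in all libraries. C1orf174, which starts 79 bases away on the other strand, had 541 and 285 counts in resistant cells and 150 and 144 in wild type, or 11.1 ± 4.67 and 5.18 ± 0.154 CPM (SD, n = 2 each). Both resistant values were above both wild-type values, with resistant replicate 1 the highest, and its log2 fold change was 1.10 ± 0.47 (SE; adjusted p = 0.663, edgeR). DFFB, the gene of a DNase of apoptosis, had 82 and 164 counts in resistant cells and 342 and 279 in wild type, a log2 fold change of -1.71 (edgeR adjusted p = 0.522). TP73, a p53 family gene, had 116 and 43 counts in resistant cells and 0 and 0 in wild type (edgeR adjusted p = 0.383, and 0.00993 to 0.825 over the alternatives, the lowest in DESeq2). For its neighbour TP73-AS1 the log2 fold change was -0.73 (edgeR adjusted p = 0.653), and for WRAP73 and LRRC47 it was -0.15 and 0.51 (edgeR adjusted p = 0.961 and 0.830). AL365330.1 had 1 to 5 counts per library. The downstream lincRNAs LINC01346, LINC01345, AL805961.1 and AL805961.2 were at 0 in all 4 libraries, as were AL136528.1, AL136528.2 and CCDC27.

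**Figure D3:**
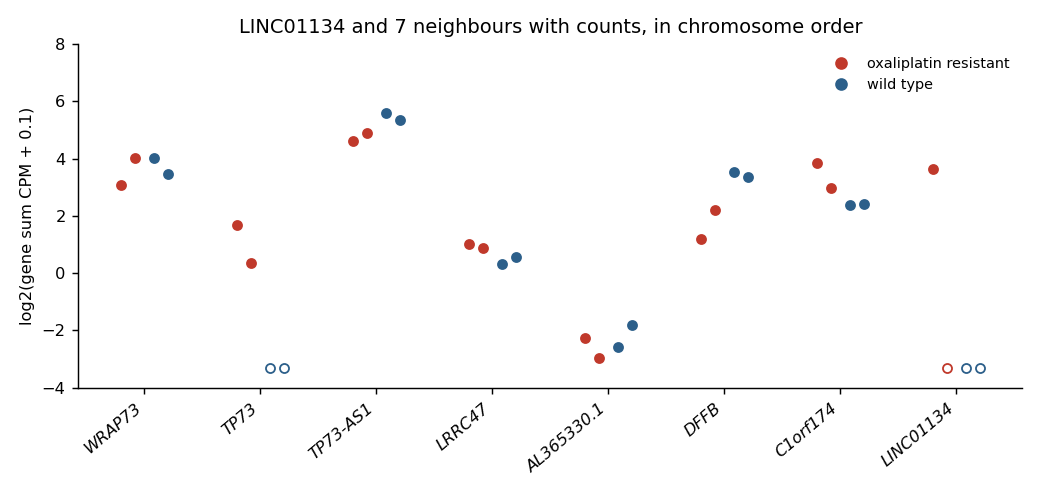
Gene sums as log2(CPM + 0.1) (y axis) for LINC01134 and 7 genes within 250 kb of it that had counts, in chromosome order (x axis), with 1 point per library and open points for a count of 0. LINC01134 is the one gene shown that has counts in 1 resistant library and 0 in the other, and C1orf174 next to it has counts in all 4.

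Patterns were compared by the Euclidean distance between log2(CPM + 0.1) profiles centred over the 4 libraries, among 6873 tested genes at or above the median level. The gene nearest LINC01134 was CHN1 at a distance of 1.61, with 63046 and 603 counts in resistant cells and 123 and 427 in wild type. SMOX followed at 1.66, with 2731 and 49 counts against 72 and 59. AC099518.3, UBLCP1 and ARHGAP5 were at 2.23, 2.23 and 2.26. All 5 were highest in resistant replicate 1, which follows from how they were chosen, and none had a 0. The median distance over all these genes was 6.07, and the filter had removed genes counted in 1 library, so those were not compared.

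Noncoding transcripts of SQSTM1 (ENSG00000161011, chromosome 5, 179806398 to 179838078, plus strand) were at a higher level in both resistant libraries than in either wild-type library, without passing the test. The sum over its 7 transcripts in the table was 3588 and 3865 counts in resistant cells and 1718 and 1502 in wild type. On the gene scale these were 95.5 and 105.6 CPM against 58.1 and 55.2 CPM. The means were 100.6 ± 7.17 CPM in resistant cells and 56.6 ± 2.06 CPM in wild type (SD, n = 2 each), a 1.78-fold difference. The groups did not overlap, and the gap between them was larger than the spread within either pair. In bulk RNA, more RNA per cell and more cells with it cannot be told apart.

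The log2 fold change of the SQSTM1 sum was 0.83 ± 0.24 (SE), with an unadjusted p of 0.0309 and an adjusted p of 0.508 (edgeR quasi-likelihood test over 13745 genes). None of those genes passed at an adjusted p under 0.05, a share of 0%, and limma-voom called 0 as well, while DESeq2 called 632. DESeq2 gave SQSTM1 an adjusted p of 0.0576, and over all alternatives its adjusted p ran from 0.0576 to 0.865. An unadjusted p under 0.05 with a higher mean in resistant cells was found for 4.74% of genes in edgeR, and groups that did not overlap, with resistant cells higher, for 22.5% (8.67% and 43.0% in either direction, 3.93% and 20.5% with resistant cells lower). A log2 fold change larger than that of SQSTM1 in either direction was found for 33.1% of tested genes. With 2 libraries against 2, the smallest exact two-sided permutation p is 0.33, so no such test was used.

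Most of the difference in the SQSTM1 sum was in 1 transcript. ENST00000466342, a retained-intron transcript of 4 exons at 179823858 to 179833386, had 2883 and 2724 counts in resistant cells and 1340 and 675 in wild type. On the transcript scale its level was 62.7 ± 0.931 CPM in resistant cells and 28.8 ± 11.8 CPM in wild type (SD, n = 2 each), with a log2 fold change of 1.12 ± 0.45 (SE; adjusted p = 0.759, edgeR). It made up 75.4% ± 6.98 of the SQSTM1 counts in resistant cells and 61.5% ± 23.4 in wild type. Wild-type replicate 2 was the lowest and the resistant pair lay close together. Without this transcript the sum was 705 and 1141 counts in resistant cells and 378 and 827 in wild type, or 25.0 ± 8.78 and 21.6 ± 12.4 CPM, and the groups overlapped.

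Of the 808 bases of ENST00000466342, 668 (82.7%) lie in exons of protein-coding SQSTM1 transcripts, and the other 140 form its 3′ end. That end is shown, with the 30 bases before it, because only these 140 bases tell the transcript from the mRNAs. It spans bases 639 to 808 (chr5:179833217-179833386), with capitals for bases outside the coding transcripts. Whether reads of the SQSTM1 mRNA were counted on this transcript was not tested, since the table holds no protein-coding SQSTM1 transcript.

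ENST00000466342 end: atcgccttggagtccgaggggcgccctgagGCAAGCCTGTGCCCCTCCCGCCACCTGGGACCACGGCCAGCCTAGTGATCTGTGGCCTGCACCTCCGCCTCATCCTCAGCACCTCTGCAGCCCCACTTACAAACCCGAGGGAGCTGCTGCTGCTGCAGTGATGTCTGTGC

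**Figure D4:**
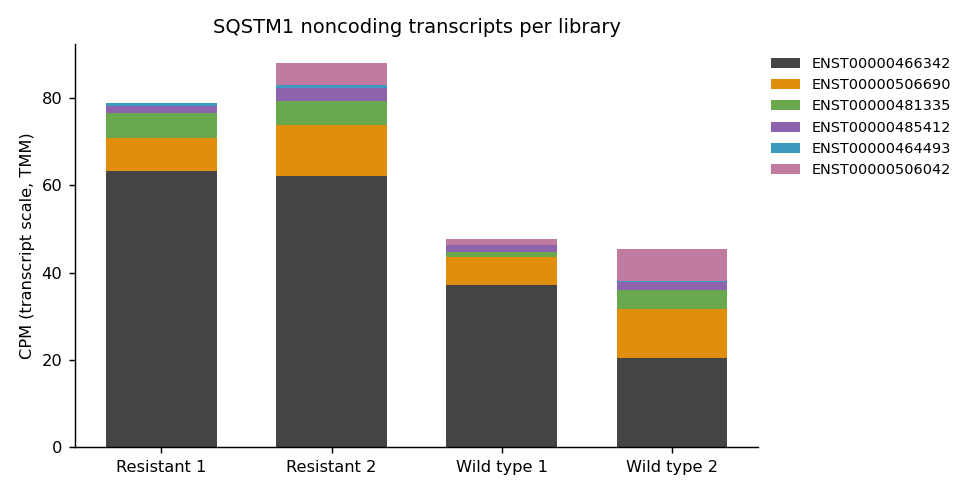
Stacked levels in CPM on the transcript scale (y axis) of the 6 SQSTM1 transcripts with counts, for each library (x axis). ENST00000466342 is the tallest segment in every library, at 63.4 and 62.1 CPM in resistant cells and 37.2 and 20.4 CPM in wild type. The segments of ENST00000506042 and ENST00000506690 are taller in replicate 2 of each group, and the groups overlap.

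The SQSTM1 transcripts were also split by where they start, a split that, like the sum without ENST00000466342, was chosen after the values were seen. ENST00000506042 starts 5 bases after the first upstream promoter's start, and it had 0 and 222 counts in resistant cells and 45 and 243 in wild type. ENST00000506690 starts 315 bases after the second upstream start, and it had 346 and 521 counts in resistant cells and 228 and 371 in wild type. ENST00000512234 was at 0 in all 4 libraries. Summed, these 3 transcripts were at 9.21 and 20.3 CPM in resistant cells and 9.23 and 22.6 CPM in wild type, so that replicate 2 was the higher library in both groups. The 4 transcripts that start from 179818967 on were at 86.3 and 85.3 CPM in resistant cells and 48.9 and 32.6 CPM in wild type, a 2.11-fold difference of means, against 0.928-fold for the 3 upstream ones.

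Among the transcripts that start from 179818967 on, ENST00000481335 starts upstream of the downstream promoter. It had 258 and 236 counts in resistant cells and 43 and 143 in wild type, a log2 fold change of 1.0 ± 0.80 (SE; adjusted p = 0.939, edgeR). That value was 2.21 without wild-type replicate 2 and 0.35 without wild-type replicate 1. ENST00000464493 had 33 and 30 counts in resistant cells and 0 and 5 in wild type (edgeR adjusted p = 0.859). The retained-intron transcript ENST00000485412 had 68 and 132 counts in resistant cells and 62 and 65 in wild type, and its CPM values overlapped between groups. A test of whether the 6 tested SQSTM1 transcripts changed unequally gave an unadjusted p of 0.683 and an adjusted p of 1.0 (edgeR diffSpliceDGE over 7418 genes). That test called 4.41% of genes at an adjusted p under 0.05, and on simulated counts it also called genes with no change.

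Genes that overlap SQSTM1 on the other strand had groups that overlapped. MGAT4B, at its 5′ end, had 2999 and 2664 counts in resistant cells and 1929 and 2374 in wild type, a log2 fold change of 0.0016 (edgeR adjusted p = 0.999). MRNIP, at its 3′ end, had 1099 and 1013 counts in resistant cells and 830 and 1342 in wild type (log2 fold change -0.44, edgeR adjusted p = 0.819). No source used here says if counting used strand. MGAT4B spans 179797597 to 179806952 and so meets only the first exon of ENST00000506042 (179806398 to 179806591), where reads cannot be told apart. MRNIP spans 179835133 to 179862173, past the last base of the SQSTM1 transcripts in the table, 179833386. ENST00000466342 overlaps neither gene. Among the genes nearest SQSTM1 in pattern were THOC2, PSMC1, AC017116.2 and DUS1L, at distances of 0.0799 to 0.114 over the 4 libraries, and 2649 of 6872 genes lay within a distance of 1.

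KEAP1 (ENSG00000079999, chromosome 19, 10486120 to 10503741, minus strand) was counted at a low level in all libraries. Its 2 noncoding transcripts summed to 37 and 110 counts in resistant cells and 52 and 36 in wild type, or 2.00 ± 1.43 and 1.54 ± 0.308 CPM (SD, n = 2 each). The resistant libraries lay on either side of the wild-type pair, and the log2 fold change was 0.37 ± 0.75 (SE; adjusted p = 0.933, edgeR). It was -0.64 without resistant replicate 2, so its direction rests on that library.

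The 2 KEAP1 transcripts differed in which group was the higher. The retained-intron transcript ENST00000590237, at 10486612 to 10489435, had 30 and 38 counts in resistant cells and 52 and 36 in wild type, or 0.660 and 0.866 CPM against 1.44 and 1.09 CPM. Resistant values were the lower ones without overlap, at a log2 fold change of -0.73 ± 0.52 (SE; adjusted p = 0.921, edgeR). ENST00000588024, at 10491947 to 10499509, had 7 and 72 counts in resistant cells and 0 and 0 in wild type, and did not pass the filter. Of their bases, 85.1% and 74.8% lie in exons of protein-coding KEAP1 transcripts.

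NFE2L2 (ENSG00000116044, chromosome 2, 177227595 to 177392697, minus strand), the gene of NRF2, was at a lower level in both resistant libraries, without passing the test. Its 2 retained-intron transcripts summed to 3849 and 2858 counts in resistant cells and 3452 and 3493 in wild type. On the gene scale these were 102.4 and 78.1 CPM against 116.7 and 128.3 CPM. The means were 90.3 ± 17.2 CPM in resistant cells and 122.5 ± 8.19 CPM in wild type (SD, n = 2 each), a log2 fold change of -0.44 ± 0.27 (SE; adjusted p = 0.737, edgeR). The groups did not overlap, as for 20.5% of tested genes in this direction, and resistant replicate 2 was the lowest library.

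The 2 NFE2L2 transcripts lay in opposite directions. ENST00000477534, of 2 exons between 177233477 and 177263537, had 3533 and 2424 counts in resistant cells and 3283 and 3334 in wild type, or 66.5 ± 15.9 and 96.0 ± 6.93 CPM (SD, n = 2 each). ENST00000462023, of 2 exons between 177233879 and 177264659, had 316 and 434 counts in resistant cells and 169 and 159 in wild type, or 8.42 ± 2.08 and 4.75 ± 0.0863 CPM. Neither pair of groups overlapped, and the log2 fold changes were -0.53 ± 0.35 and 0.82 ± 0.43 (SE; adjusted p = 0.911 and 0.859, edgeR). ENST00000462023 made up 11.7% ± 4.93 of the NFE2L2 counts in resistant cells and 4.72% ± 0.243 in wild type. The test of unequal change gave an unadjusted p of 0.0665 and an adjusted p of 0.474 (edgeR diffSpliceDGE), where 12.5% of genes had an unadjusted p under 0.05. Of the bases of ENST00000477534 and ENST00000462023, 43.2% and 75.8% lie in exons of protein-coding NFE2L2 transcripts.

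AC079305.1 (177264359 to 177265515, plus strand) is an antisense gene over the NFE2L2 start that RefSeq lists at 177264727. It had 12 and 11 counts in resistant cells and 41 and 72 in wild type, a log2 fold change of -2.69 ± 0.65 (SE; edgeR unadjusted p = 0.0167, adjusted p = 0.407). It overlaps the first exon of ENST00000462023, so their reads cannot be told apart without strand. The sense-overlapping gene AC019080.1 had 1254 and 785 counts in resistant cells and 1612 and 1093 in wild type (edgeR adjusted p = 0.687), and AC019080.4, another antisense gene, had 87 and 75 counts against 103 and 94. AGPS, which meets NFE2L2 at the 5′ end of the annotated gene, had 1195 and 1182 counts in resistant cells and 874 and 779 in wild type, a log2 fold change of 0.14. AC019080.5 had 4 or 5 counts per library, AC011461.1 within KEAP1 had 6 to 12, and AC019080.3 was at 0.

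Of the 14 member transcripts, 11 had a count in some library and 9 passed the filter. None of the 9 passed the edgeR test over 42393 transcripts, where the share called was 0%. Of the 9, 4 were higher and 2 lower in resistant cells without overlap between groups, against 21.4% and 18.9% of all tested transcripts (40.3% in either direction). In edgeR 0 of the 9 had an unadjusted p under 0.05, which 7.74% of tested transcripts had, 4.56% with resistant cells higher and 3.18% lower. Compared per kilobase of transcript, ENST00000466342 of SQSTM1 averaged 77.6 CPM per kb in resistant cells and 35.7 in wild type, and ENST00000477534 of NFE2L2 averaged 71.5 and 103.2. These 2 were the most highly counted of the member transcripts per length in both groups.

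The remaining genes of the axis were read from 6 lists of noncoding gene sums, and none of their members passed the edgeR test. Of 38 names of NRF2 target genes, 32 were in the table and 27 were tested. Of the 27, 16 had a lower and 11 a higher mean in resistant cells, and the median log2 fold change was -0.28, beside 0.01 for all tested genes. In 10 of the 27 (37.0%) the groups did not overlap with resistant cells lower, and in 3 (11.1%) with resistant cells higher, beside 20.5% and 22.5% of all genes. In summed level the list had 3451 and 3746 CPM in resistant cells and 5555 and 4652 CPM in wild type. Of these sums, MGST1 alone held 159.3 and 636.9 CPM in resistant cells and 1458 and 541.0 CPM in wild type. Its groups overlapped, and wild-type replicate 1 was the highest. The gap between the list sums did not rest on MGST1 alone, and such sums weigh highly counted genes most.

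The NRF2 targets with an unadjusted p under 0.05 in edgeR were 4 of 27, each lower in resistant cells, where 3.93% of all tested genes were lower and 4.74% higher at that p. AKR1C1, an aldo-keto reductase gene, had 259 and 541 counts in resistant cells and 2942 and 1325 in wild type, a log2 fold change of -2.77 ± 0.65 (SE; adjusted p = 0.393, edgeR). Its close paralogue AKR1C2 had 4311 and 2418 counts in resistant cells and 5800 and 5168 in wild type (log2 fold change -1.09, edgeR adjusted p = 0.558), and how reads were shared between the near-identical copies is uncertain. TRIM16L had 3842 and 5328 counts in resistant cells and 9680 and 9111 in wild type, a log2 fold change of -1.42 ± 0.29 (SE; adjusted p = 0.388, edgeR). It is a copy of part of TRIM16, so its reads are uncertain too. ABCC3, an efflux pump gene, had 8756 and 10109 counts in resistant cells and 12477 and 11744 in wild type (log2 fold change -0.74, edgeR adjusted p = 0.524). In DESeq2, AKR1C1 and TRIM16L had adjusted p-values of 0.00316 and 0.00414, and the highest over the alternatives was 0.825 for both.

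The most highly counted NRF2 targets were TKT, a transketolase of the pentose phosphate pathway, and AKR1B1, an aldose reductase. TKT was at 773.6 ± 10.7 CPM in resistant cells and 1138 ± 231.6 CPM in wild type (SD, n = 2 each; edgeR adjusted p = 0.677), and AKR1B1 at 718.8 ± 151.5 and 873.9 ± 40.6 CPM (edgeR adjusted p = 0.827). The transcripts of OSGIN1, UGT1A6, AKR1B10 and CES1 were at 0 in every library. Of the 27 tested targets, FTH1, ABCC1 and BLVRB were the 3 with resistant cells higher without overlap, against 10 lower, and in 14 the groups overlapped. FTH1 was at 554.8 ± 27.9 CPM in resistant cells and 387.7 ± 25.5 CPM in wild type (SD, n = 2 each; edgeR adjusted p = 0.659). AKR1C2, ABCC3, MGST1, FTH1, ABCC1, BLVRB and, in the list below, BACH1 were chosen after their values were seen. The other genes of the lists named with values follow the rule given with the processing.

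**Figure D5:**
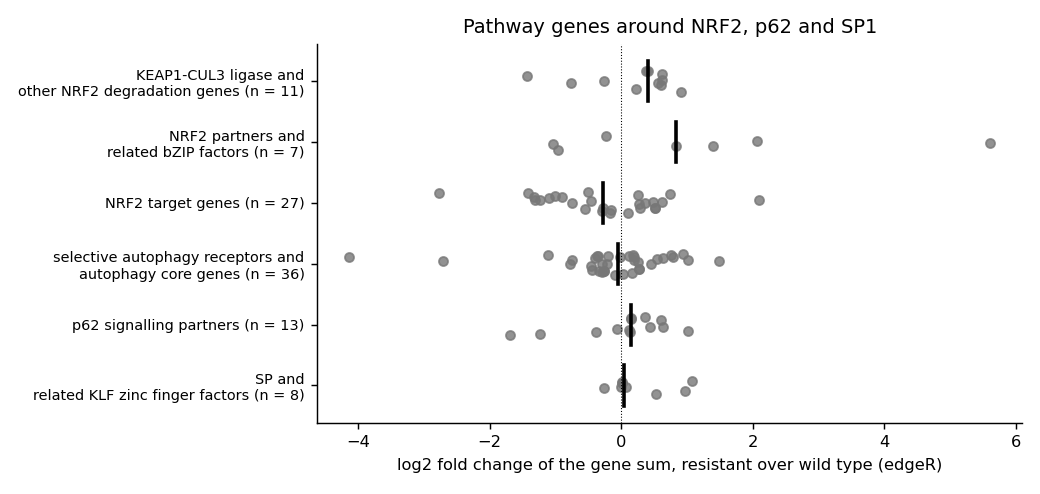
Log2 fold change of the gene sum, resistant over wild type (x axis), for each tested gene of 6 lists (rows), with 1 point per gene, spread vertically for visibility, and a bar at the median. The NRF2 targets have a median of -0.28, and the list of NRF2 partners and related basic leucine zipper (bZIP) factors one of 0.84. No gene shown passed the edgeR test.

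Among NRF2 partners and related bZIP factors, 7 of 8 genes in the table were tested. BACH1, BACH2, NFE2L1 and NFE2L3 were in this list as related factors, so it is not one of partners only. MAFF, a small MAF protein that pairs with NRF2 on DNA, had 58 and 83 counts in resistant cells and 1 and 1 in wild type (edgeR unadjusted p = 0.00192, adjusted p = 0.323). The wild-type counts are within the limit of 3 counts, so no fold is given, and its adjusted p ran from 0.00523 in DESeq2 to 0.825 over the alternatives. CREBBP, the gene of a histone acetyltransferase and coactivator, had 2223 and 2619 counts in resistant cells and 907 and 515 in wild type, a log2 fold change of 1.40 ± 0.38 (SE; adjusted p = 0.465, edgeR). RXRA, a nuclear receptor gene, had 9950 and 11292 counts in resistant cells and 758 and 3035 in wild type (edgeR adjusted p = 0.630). Resistant values of all 3 were above both wild-type values, which was so for 3 of the 7 tested genes, and 1 of the 7 was lower without overlap (42.9% and 14.3%, beside 22.5% and 20.5% of all tested genes). The median log2 fold change was 0.84, which is the value of BACH1, whose groups overlapped.

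Of the list of KEAP1-CUL3 ligase genes and other genes linked to NRF2 degradation, 11 were tested. In 5 of them the resistant values were above both wild-type values, and in 0 below (45.5% and 0%, beside 22.5% and 20.5% of all tested genes). SYVN1, an ubiquitin ligase gene of the endoplasmic reticulum, was at 35.0 ± 1.27 CPM in resistant cells and 22.7 ± 6.79 CPM in wild type (SD, n = 2 each; edgeR adjusted p = 0.718). USP11, a deubiquitinase gene and 1 of these 5, was at 26.6 ± 5.17 and 17.2 ± 4.22 CPM (edgeR adjusted p = 0.721). The rest of these 5 were CUL3, RBX1 and SKP1. With a deubiquitinase gene beside ligase genes, the list joins genes of unlike action, and its count gives no direction for NRF2 degradation. GSK3B, a kinase gene, and FBXW11, which marks NRF2 for degradation after that kinase has acted, had the highest means. Their groups overlapped, with log2 fold changes of -0.27 and 0.41 (edgeR adjusted p = 0.931 and 0.856). The median of the list was 0.41, and 0 members had an unadjusted p under 0.05.

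Autophagy genes, which share the pathway of p62, had 36 tested members, a median log2 fold change of -0.05, and 9 higher and 7 lower without overlap. These were 25.0% and 19.4%, near the 22.5% and 20.5% of all tested genes. ULK2, the gene of a kinase that starts autophagy, had 52 and 51 counts in resistant cells and 978 and 431 in wild type, a log2 fold change of -4.13 ± 0.56 (SE; edgeR unadjusted p = 0.00239, adjusted p = 0.323). TOLLIP, an adaptor that binds ubiquitin and LC3, had 2150 and 2785 counts in resistant cells and 738 and 619 in wild type (log2 fold change 1.48, edgeR adjusted p = 0.388). PIK3C3, a lipid kinase gene, was at 611.8 ± 151.4 CPM in resistant cells and 752.0 ± 268.0 CPM in wild type, and ATG16L1, of the LC3 conjugation complex, at 403.5 ± 3.76 and 295.7 ± 30.9 CPM (SD, n = 2 each; edgeR adjusted p = 0.885 and 0.694). DESeq2 gave ULK2 and TOLLIP adjusted p-values of 1.6e-08 and 0.00243, and the highest over the alternatives was 0.825 for both.

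The signalling partners of p62 had 13 tested members and a median log2 fold change of 0.15. HDAC6, a deacetylase gene of aggresome transport, had 1088 and 1994 counts in resistant cells and 2649 and 2889 in wild type, a log2 fold change of -1.23 ± 0.42 (SE; edgeR unadjusted p = 0.0484, adjusted p = 0.571). CYLD, a deubiquitinase gene, had 19976 and 10816 counts in resistant cells and 6179 and 5399 in wild type (log2 fold change 1.02, edgeR adjusted p = 0.610). MAP2K5 and RPTOR, a kinase gene and a gene of the mTOR complex, had the highest means and log2 fold changes of 0.12 and 0.15 (edgeR adjusted p = 0.942 and 0.957). In 3 genes the resistant values were higher without overlap, and in 1 lower (23.1% and 7.69%, beside 22.5% and 20.5% of all tested genes).

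With SP1 itself not in the table, its family was read from 8 tested genes of 12 in the table. SP3, which binds the same GC boxes, was at 35.2 ± 0.806 CPM in resistant cells and 24.4 ± 3.85 CPM in wild type (SD, n = 2 each), a log2 fold change of 0.53 ± 0.30 (SE; adjusted p = 0.713, edgeR). KLF7 had 357 and 341 counts in resistant cells and 234 and 28 in wild type. These were the 2 of the 8 genes whose groups did not overlap, or 25.0%, beside 22.5% of all tested genes with resistant cells higher. KLF12 had 6488 and 3994 counts in resistant cells and 249 and 3691 in wild type, so the wild-type libraries lay far apart and wild-type replicate 2 lay near the resistant pair. KLF4, a Krüppel-like factor gene, was at 37.8 ± 4.69 CPM in resistant cells and 35.8 ± 11.4 CPM in wild type (edgeR adjusted p = 0.971). The median log2 fold change of the list was 0.04.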

How the data were processed

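RNA of 2 oxaliplatin-resistant and 2 wild-type libraries of cells labelled HepG2 was measured. The deposited values are estimated counts of 106179 transcripts, all whole numbers, in 1 table, with no normalization. Per the labels, libraries were made from 2 µg of total RNA and read as pairs of 150 bases. No aligner or counting tool is named in the sources used here. The build named in the submitters' processing notes is mm9, a mouse assembly, while 103347 of the identifiers are human Ensembl ones, of which 84072 matched GENCODE release 29 on GRCh38. The other 19275 Ensembl and 2832 assembled identifiers have no gene name here, so counts of the same genes may lie on them.

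Counts were summed per gene over named transcripts. Gene sums (13745) and transcripts (42393) were tested with the edgeR 4.0.16 quasi-likelihood test in R 4.3.3, with trimmed mean of M-values (TMM) factors and a minimum count of 10. Adjustment was by Benjamini-Hochberg over all tested features, two-sided, at a threshold of 0.05. Unequal change within a gene was tested with diffSpliceDGE. Standard errors are the log2 fold change over the root of F. Gene and transcript CPM are on separate scales. DESeq2 1.42.0, limma 3.58.1 voom, other scalings, no filter, a replicate block and leaving out each library were alternatives. The code was tested on simulated data. Python 3.11.15 with matplotlib 3.10.9, SciPy 1.17.1 and pandas 2.3.3 made the tables and figures.

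No 2 libraries agreed within sampling noise. Chi-square per transcript was 267.2 within the resistant pair, 240.3 within the wild-type pair and 279.6 to 300.1 between groups. Libraries of a group thus differed nearly as much as the groups did. A count of 0 allows up to 3 counts, counting error only. Named were all members, all genes within 250 kb of LINC01134, those overlapping a member, the 5 nearest in pattern, and from each list the 2 of highest mean and the 2 of smallest p. Of these, 2 genes are not reported here. Members and lists were chosen with earlier results of these data known.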

Additional observations from a re-analysis of the deposited data

How the results depend on the processing

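The edgeR test called 0 gene sums and 0 transcripts at an adjusted p under 0.05 (1192 and 3283 at an unadjusted p under 0.05). Other scalings, no filter, limma-voom, the replicate block and leaving out a library also gave 0, and DESeq2 called 632 gene sums and 2261 transcripts, with 0 members among them. Genes with unequal change of their transcripts were 327, against 37 in limma-voom, 159 with no filter and 45 to 232 when a library was left out. The resistant minus wild-type mean of LINC01134, 6.12 CPM, ran from 0, without resistant replicate 1, to 12.2. The cause of these shifts was not tested.

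Same-numbered libraries did not deviate together (correlation -0.02 over gene sums), so the numbers were not taken as pairs. With the replicate block, the SQSTM1 log2 fold change was 0.83 with an edgeR adjusted p of 0.825, 41 genes had unequal change of their transcripts, and 781 gene sums and 1961 transcripts had an unadjusted p under 0.05.

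Of 60 single log2 fold changes, 15 changed sign when some library was left out. Their ranges were KEAP1 -0.64 to 0.96, ENST00000506042 -10.36 to 1.02, ENST00000506690 -0.21 to 0.62, ENST00000485412 -0.31 to 0.70, GSK3B -0.80 to 0.28, FBXW11 -0.034 to 1.06, KLF4 -0.21 to 0.44, MAP2K5 -0.13 to 0.42, RPTOR -0.44 to 0.57, PIK3C3 -0.62 to 0.12, WRAP73 -0.69 to 0.25, MRNIP -0.79 to 0.020, MGAT4B -0.19 to 0.23, SMOX -0.78 to 4.99 and AC099518.3 -1.08 to 4.35. MGAT4B also stood at -0.0055 in DESeq2 and with relative log expression factors, and at -0.0025 with no filter. SQSTM1 and NFE2L2 sums kept their sign under every alternative run. With 2 libraries a group, the spread limits what can be told apart. Members below the filter, LINC01134 among them, had no test under it with all 4 libraries.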
